A study of Homo sapiens with 6 samples.

Results

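The genes described here fold, sort and dispose of proteins in the endoplasmic reticulum (ER), together with the sensors and transcription factors of the unfolded protein response. A fixed list of 43 gene symbols chose them, out of 58302 gene entries in the deposited count table, and all 43 were found in it. The list was chosen with earlier results of these data known. Its shares and medians are therefore a description and not independent support. They were followed in 6 RNA-seq libraries of Ker-CT, an established line of human skin keratinocytes. The siKMT2C group (3 libraries) had received siRNA against KMT2C, an enzyme that methylates histone H3 at lysine 4, and the siNC group (3 libraries) had received control siRNA. Cells of both groups were exposed for 24 h to M5, a mixture of TNF-α, oncostatin M, IL-22, IL-1α and IL-17A at 10 ng/ml each that is used to model psoriasis. All libraries come from a single line, no library without cytokines was used here, and the labels do not say whether replicates were separate cultures, so p-values measure the spread between these libraries, which may be technical.

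Secreted and membrane proteins enter the ER through the SEC61 channel, fold there with the help of chaperones and disulfide isomerases, and leave in COPII-coated vesicles. Those that fail to fold are sent back to the cytosol for destruction, a route called ER-associated degradation. When unfolded proteins build up, the membrane sensors ATF6, ERN1 (IRE1) and EIF2AK3 (PERK) signal to the nucleus and to the ribosome. Cleaved ATF6 and the spliced form of XBP1 then act on short promoter elements of chaperone genes. Keratinocytes use the same machinery for the adhesion receptors, matrix proteins and cytokines that they make.

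The ER stress response element (ERSE) is written CCAAT, 9 bases, CCACG, and ERSE-II is written ATTGG, 1 base, CCACG. Both were searched on both strands of promoter windows from RefSeq (GRCh38.p14), each running from 250 bases before to 50 bases after a start site, and 38 of the 43 members had a window. ERSE occurred in 8 of these 38 (21.1%), against 0.0916% of all 27305 gene symbols with a window. ERSE-II occurred in 3 members (7.89%), against 0.0696% of all symbols. A further element, TGACGTGG, occurred in DNAJC10, HYOU1 and SSR3 (7.89%), against 0.927% of all symbols. Such elements are known from chaperone genes, which the list holds by choice, so these shares are a description and not a test. The sequences are shown because fold changes are set out by element further on. They read 5′ to 3′ on the gene's strand, with bases before the start site only and the match in capitals; a match that begins CGTGG lies on the opposite strand. A match is a description of the letters and not proof of a working site. These are the 8 members with ERSE:

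HSPA5, chr9:125241371-125241429, minus strand: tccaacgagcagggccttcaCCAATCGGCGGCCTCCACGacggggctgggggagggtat
HSP90B1, chr12:103930196-103930359, plus strand: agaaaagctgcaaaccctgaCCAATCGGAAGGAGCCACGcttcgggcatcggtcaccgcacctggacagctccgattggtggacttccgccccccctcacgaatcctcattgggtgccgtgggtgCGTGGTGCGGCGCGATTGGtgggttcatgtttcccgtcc
CALR, chr19:12938364-12938422, plus strand: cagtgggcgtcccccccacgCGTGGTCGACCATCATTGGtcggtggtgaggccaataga
CANX, chr5:179698758-179698816, plus strand: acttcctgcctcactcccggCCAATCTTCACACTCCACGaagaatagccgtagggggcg
PDIA6, chr2:10812833-10812891, minus strand: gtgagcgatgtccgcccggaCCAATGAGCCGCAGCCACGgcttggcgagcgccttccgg
CRELD2, chr22:49918534-49918592, plus strand: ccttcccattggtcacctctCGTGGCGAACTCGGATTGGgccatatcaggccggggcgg
ERO1B, chr1:236282163-236282208, minus strand: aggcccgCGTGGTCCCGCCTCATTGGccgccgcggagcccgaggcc
XBP1, chr22:28800583-28800641, minus strand: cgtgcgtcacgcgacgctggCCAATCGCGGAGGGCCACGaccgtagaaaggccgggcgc

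HSP90B1, the ER form of Hsp90, carried 2 copies. These are the 3 members with ERSE-II, where HYOU1 also has TGACGTGG overlapping its first copy:

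SDF2L1, chr22:21642094-21642144, plus strand: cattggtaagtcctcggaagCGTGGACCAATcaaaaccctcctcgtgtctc
HERPUD1, chr16:56932005-56932055, plus strand: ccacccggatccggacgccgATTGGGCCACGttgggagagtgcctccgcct
HYOU1, chr11:119057254-119057413, minus strand: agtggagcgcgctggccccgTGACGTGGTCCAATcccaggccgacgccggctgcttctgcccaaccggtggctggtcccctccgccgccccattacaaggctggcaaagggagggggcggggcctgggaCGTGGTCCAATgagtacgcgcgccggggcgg

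PDIA4, which had the largest fold change of all members, had none of these letters in its windows. Its 120 bases before the start are given for comparison:

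PDIA4, chr7:149028491-149028610, minus strand: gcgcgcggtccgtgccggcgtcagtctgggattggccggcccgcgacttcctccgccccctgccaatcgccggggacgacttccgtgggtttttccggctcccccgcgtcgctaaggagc

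The libraries held 14409277 to 17539519 counts, and mitochondrial transcripts took 4.83% to 6.65% of them. KMT2C itself was at 32.0, 30.8 and 27.3 CPM (read counts scaled to library depth, with TMM factors) in siKMT2C against 87.9, 82.0 and 72.6 CPM in siNC (log2 fold change -1.43, SE 0.14, edgeR adjusted p = 0.00786); this call was lost on leaving out siKMT2C replicate 1 (0.0634), siKMT2C replicate 2 (0.0507) or siNC replicate 2 (0.0593). The 10 keratinocyte markers summed to between 18290 and 25100 CPM in siKMT2C and between 18370 and 27910 CPM in siNC. Single markers shifted within this sum, with 7 negative and 3 positive log2 fold changes. TP63 (-0.69) and ITGA6 (-0.51) had every siKMT2C library below every siNC library, and COL17A1 (0.72) had every one above. None of the 10 was called by edgeR, and DESeq2 called 1 higher and 2 lower, against 5.74% of all genes. Markers of other cells were scarce. The 7 fibroblast markers summed to 13.5 to 17.5 CPM in siKMT2C and 20.7 to 31.1 CPM in siNC, and the 7 melanocyte markers to 6.97 to 8.93 against 7.96 to 15.7 CPM, with TYR, DCT and SOX10 at 0. The 7 leukocyte and endothelial markers summed to 0.184 to 0.321 against 0.973 to 1.13 CPM, with PTPRC, CD3E, PECAM1 and CDH5 among those at 0. CD14 held most of this sum, at means of 0.209 CPM in siKMT2C and 1.00 CPM in siNC.

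Most genes on the fixed list had higher values in siKMT2C, and within the list the shift was greatest among the chaperones and disulfide isomerases. The 28 other ER foldases and chaperones, outside the list, had a median log2 fold change of 0.21. Of 42 members that passed the filter on low counts, 3 rose at an edgeR adjusted p under 0.05: the disulfide isomerases PDIA4 and CRELD2 and the transcription factor CREB3L2. None fell by edgeR, DESeq2 or limma-voom, and 20 had an unadjusted edgeR p under 0.05, all of them with higher values. Across all 15063 genes tested, 1.5% were called, 0.69% higher and 0.81% lower, and 7.91% had an unadjusted p under 0.05 with higher values. Of the 42 members, 37 were positive on the log2 fold change scale (88.1%, against 49.7% of all genes), and the median was 0.45, against a median of 0.00 over all genes. In 23 members every siKMT2C library was above every siNC library (54.8%, against 11.8% of all genes). All 42 had a mean of at least 20 CPM, and among the 8047 genes at or above that level 51.9% were positive and the median was 0.01. Because RNA was taken from whole cultures, a change in every cell and a change in the share of cells that express a gene cannot be told apart.

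The number of members called moved with the libraries and settings used. It was 0, 0 and 1 on leaving out siKMT2C replicates 1, 2 and 3 in turn, and 0, 0 and 7 for siNC replicates 1, 2 and 3. The share of all genes called moved too, at 0.129%, 0.123%, 0.22%, 0.337%, 0.104% and 4.04% in the same fits. siNC replicate 3 held the lowest value of 24 of the 42 members, against 24.9% of all genes, and siKMT2C replicate 2 held the highest value of 24, against 19.1% of all genes. Without siNC replicate 3 the median of the members was 0.31, and without siKMT2C replicate 2 it was 0.29. DESeq2 called 13 members and 5.74% of all genes. Correction for transcript GC content and length called 17 members and 9.09% of all genes, which then split into 775 higher and 594 lower, against 104 higher and 122 lower without it. The longest transcripts of the members had a median GC content of 45.1%, against 48.0% for all genes. Those of the members called without the correction had 53.0%. The part of replicate spread in the calls was not tested.

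**Figure D1:**
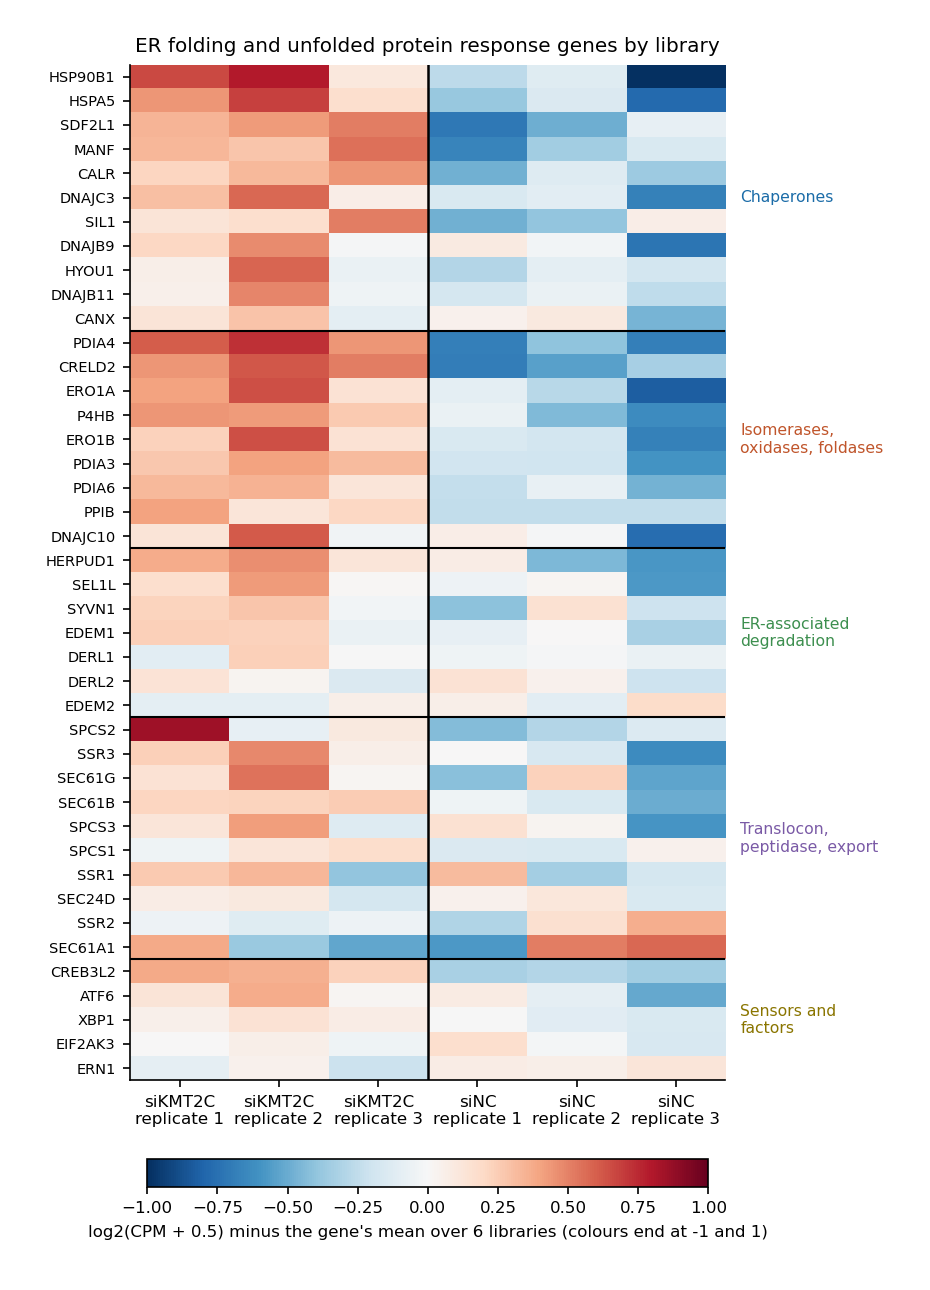
Heat map of the 42 tested members (rows, grouped by role and sorted by fold change) in the 6 libraries (columns); colour is log2(CPM + 0.5) minus the gene's mean over the libraries. Most chaperones and isomerases are red in siKMT2C and blue in siNC, siNC replicate 3 is the darkest blue for HSP90B1, HSPA5 and ERO1A, and SEC61A1 follows neither group.

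The chaperones bind unfolded chains, and all 11 had positive values with a median log2 fold change of 0.62. None was called by the reported edgeR fit or limma-voom, which called 1.5% and 1.42% of all genes. Of the 11, 7 had an unadjusted edgeR p under 0.05 with higher values, against 7.91% of all genes. DESeq2 called 5, against 5.74% of all genes in either direction. In 9 of the 11 every siKMT2C library was above every siNC library, against 11.8% of all genes. HSPA5 (BiP), the ER Hsp70 and the most abundant member, was at 6505, 7691 and 5380 CPM in siKMT2C and 3682, 4322 and 2788 CPM in siNC. Every siKMT2C library of HSPA5 was above every siNC library, and the log2 fold change was 0.86 (SE 0.19, edgeR adjusted p = 0.0764). HSP90B1 (GRP94) was at 4833, 5291 and 3286 CPM in siKMT2C and 2541, 2813 and 1353 CPM in siNC (log2 fold change 1.00, SE 0.29, edgeR adjusted p = 0.136). HSP90B1 was lowest of all in siNC replicate 3, and without that library its log2 fold change was 0.73. The lectin chaperone CALR, which holds glycoproteins in the lumen, was at 1653, 1785 and 1936 CPM in siKMT2C and 1023, 1305 and 1113 CPM in siNC (log2 fold change 0.64, SE 0.13, edgeR adjusted p = 0.0613). CALR differed from HSPA5 and HSP90B1 in its order, since siKMT2C replicate 3 was its highest library. CANX, the membrane-bound relative of CALR, had the smallest shift of the class at 0.20 (SE 0.18), and its groups overlapped.

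The partners and co-chaperones of HSPA5 had the same sign. MANF, which binds HSPA5 and slows its nucleotide exchange, was at 265.2, 255.0 and 309.3 CPM in siKMT2C and 133.2, 165.4 and 189.7 CPM in siNC (log2 fold change 0.76, SE 0.16, edgeR adjusted p = 0.0655). SDF2L1, a partner of DNAJB11, was at 98.1, 104.0 and 110.6 CPM against 47.0, 55.0 and 73.2 CPM (log2 fold change 0.83, SE 0.18, edgeR adjusted p = 0.0681). In both genes siKMT2C replicate 3 and siNC replicate 3 were the highest of their groups, unlike HSPA5, whose lowest value in each group was the third replicate. The nucleotide exchange factors SIL1 and HYOU1 had log2 fold changes of 0.53 (SE 0.19) and 0.41 (SE 0.18). Without siKMT2C replicate 2 HYOU1 was at 0.19 (edgeR adjusted p = 0.639). SIL1 shares exon bases with MATR3 on the opposite strand, which held 121% as many counts, so its level is uncertain. The J-domain co-chaperones DNAJC3, DNAJB9 and DNAJB11, which hand clients to HSPA5, had 0.62 (SE 0.20), 0.42 (SE 0.23) and 0.35 (SE 0.16). The groups of DNAJB9 overlapped, since siNC replicate 1 (101.7 CPM) was above siKMT2C replicate 3 (94.9 CPM). DNAJB9 was at 0.20 without siNC replicate 3, and DNAJB11 at 0.17 without siKMT2C replicate 2. Exons of DNAJB9 overlap PNPLA8 and THAP5 (51.2% and 30.8% as many counts) and those of DNAJB11 overlap TBCCD1 (14.3%), all on the opposite strand.

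The disulfide isomerases, oxidases and other foldases gave 2 of the 3 calls and the highest median, 0.68 over 9 tested members, all with positive values. DESeq2 called 7 of them, against 5.74% of all genes in either direction. In 8 of the 9 every siKMT2C library was above every siNC library, against 11.8% of all genes. PDIA4 (ERp72; ENSG00000155660, chromosome 7, 149003062 to 149028641, GRCh38) was at 1782, 1944 and 1589 CPM in siKMT2C and 728.0, 889.2 and 729.3 CPM in siNC. The lowest siKMT2C library of PDIA4 was well above the highest siNC library. Its mean went from 782.2 ± 92.7 to 1772 ± 178 CPM (SD, n = 3), a fold change of 2.27 (log2 1.18, SE 0.14, edgeR adjusted p = 0.0128). The call of PDIA4 was lost without siKMT2C replicate 1 (adjusted p = 0.0875), siKMT2C replicate 2 (0.0617), siNC replicate 1 (0.0504) and siNC replicate 2 (0.0582), while its log2 fold change stayed between 1.11 and 1.28.

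CRELD2 (ENSG00000184164, chromosome 22, 49918167 to 49927540, GRCh38) encodes an ER protein with disulfide isomerase activity. It was at 102.8, 116.3 and 108.0 CPM in siKMT2C and 46.5, 51.6 and 59.8 CPM in siNC. The groups lay far apart relative to their spread, at 109.0 ± 6.79 against 52.6 ± 6.71 CPM (SD, n = 3; log2 fold change 1.05, SE 0.14, edgeR adjusted p = 0.0188). CRELD2 was called when siNC replicate 3 was left out (adjusted p = 0.0078) and not when any other single library was. The adjusted p was then 0.102, 0.080 and 0.0715 for siKMT2C replicates 1, 2 and 3 in turn, and 0.0631 and 0.108 for siNC replicates 1 and 2. Its exons overlap those of ALG12 on the opposite strand, which held 37.5% as many counts and had a log2 fold change of -0.03; strand was not stated for the counting. CRELD2 and ALG12 also share the ERSE printed above, which lies between the start sites of their windows.

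P4HB, the founding protein disulfide isomerase, was at 714.4, 706.3 and 630.5 CPM in siKMT2C and 501.4, 386.9 and 338.5 CPM in siNC (log2 fold change 0.74, SE 0.16, edgeR adjusted p = 0.0700). Its groups did not overlap, and it was called by DESeq2 but not by the reported edgeR fit or limma-voom. PDIA3 (ERp57), which works with the lectin chaperones on glycoproteins, and PDIA6 had 0.65 (SE 0.14, edgeR adjusted p = 0.0681) and 0.52 (SE 0.14, edgeR adjusted p = 0.112). PDIA3 shares sequence with the pseudogene PDIA3P1, which held 15% as many counts, so its level is uncertain. The oxidases ERO1A and ERO1B, which return oxidising power to the isomerases, had 0.78 (SE 0.21) and 0.68 (SE 0.20). PPIB (cyclophilin B), a prolyl isomerase, had 0.50 (SE 0.12, edgeR adjusted p = 0.0837), and its 3 siNC libraries lay within 1 CPM of each other, at 358.8, 357.8 and 358.5 CPM. DNAJC10, a reductase that opens disulfides before degradation, had 0.45 (SE 0.25), and 0.23 without siNC replicate 3, and its groups overlapped.

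**Figure D2:**
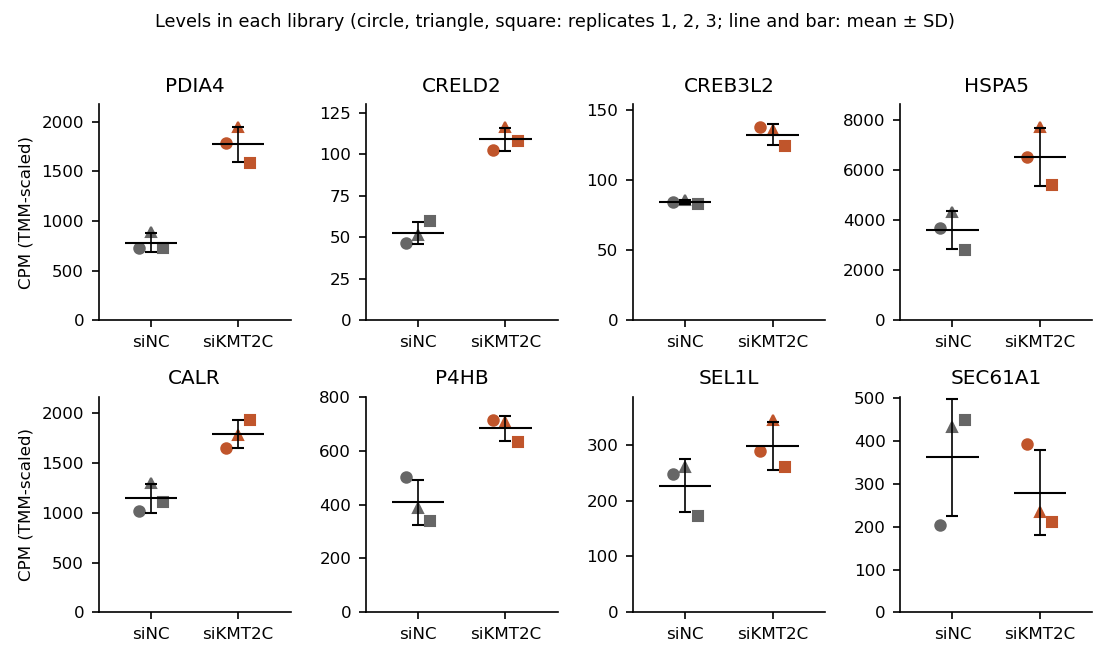
CPM in each library for the 3 called members (PDIA4, CRELD2, CREB3L2) and 5 members that stand for the roles (HSPA5, CALR, P4HB, SEL1L, SEC61A1); each panel starts at 0, symbols are replicates, and the line and bar give mean ± SD. The groups are apart in the first 6 panels and overlap for SEL1L by 1 library and for SEC61A1 throughout.

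The genes of ER-associated degradation had smaller values than the folding genes. Of 8 members, 7 were tested, 6 had positive values and the median was 0.27. None was called by the reported edgeR fit, DESeq2 or limma-voom. With replicate number added to the edgeR fit HERPUD1 was called (6.43% of all genes), and with GC and length correction SEL1L (9.09%). With both, HERPUD1, SEL1L, SYVN1 and EDEM1 were called (9.19% of all genes). Of the 7, 1 had an unadjusted edgeR p under 0.05 with higher values, against 7.91% of all genes. HERPUD1, a scaffold of the ubiquitin ligase complex, was at 219.4, 234.7 and 184.3 CPM in siKMT2C and 178.1, 123.9 and 113.2 CPM in siNC (log2 fold change 0.62, SE 0.19, edgeR adjusted p = 0.160). It was the single member of the class whose groups did not overlap (14.3% of the class, against 11.8% of all genes). SEL1L, the adaptor of that ligase, was at 289.0, 344.4 and 259.6 CPM against 247.8, 260.0 and 172.8 CPM, and the highest siNC library was just above the lowest siKMT2C library (log2 fold change 0.39, SE 0.19, and 0.22 without siNC replicate 3). The ligase SYVN1 (HRD1) had 0.30 (SE 0.18), and its exons overlap those of FAU and MRPL49, so its level is uncertain.

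The mannosidases that mark glycoproteins for disposal differed in sign, with EDEM1 at 0.27 (SE 0.14) and EDEM2 at -0.09 (SE 0.13). The derlins, membrane proteins of the exit channel, lay near 0. DERL1 had 0.09 (SE 0.13) and DERL2 0.01 (SE 0.15), and the sign of DERL2 turned with the scaling, to -0.02 with library size alone; its exons overlap MIS12 on the opposite strand (83.4% as many counts). DERL3 had 4 counts in all, 3 in siKMT2C replicate 2 and 1 in siNC replicate 3, too few to test.

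The translocon, signal peptidase and export genes were mixed, with 7 of 10 positive and a median of 0.22. None was called by the reported edgeR fit, DESeq2 or limma-voom. With replicate number added to the edgeR fit SSR3 and SEC61G were called (6.43% of all genes). With GC and length correction SSR3 was called (9.09% of all genes), as it was with both (9.19%). Of the 10, 3 had an unadjusted edgeR p under 0.05 with higher values, against 7.91% of all genes. SEC61A1, the pore of the translocon, was at 394.1, 233.9 and 210.6 CPM in siKMT2C and 203.3, 432.1 and 449.8 CPM in siNC. siKMT2C replicate 1 lay among the siNC values and siNC replicate 1 below every siKMT2C library, and the log2 fold change was -0.37 (SE 0.34, edgeR adjusted p = 0.642). On leaving out single libraries it ran from -0.70 without siKMT2C replicate 1 (edgeR adjusted p = 0.495) to -0.19 without siNC replicate 3 (0.847). The exons of SEC61A1 overlap those of RUVBL1 on the opposite strand, which held 33.5% as many counts. The small subunits of the same channel had positive values, SEC61B at 0.45 (SE 0.15) and SEC61G at 0.46 (SE 0.23), and the groups of SEC61B did not overlap.

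The translocon-associated protein SSR3 was at 657.0, 776.2 and 577.9 CPM in siKMT2C and 558.1, 497.6 and 358.8 CPM in siNC (log2 fold change 0.51, SE 0.19, edgeR adjusted p = 0.224, and 0.34 without siNC replicate 3). Its partners SSR1 and SSR2 had 0.14 (SE 0.24) and -0.18 (SE 0.18), and their groups overlapped. Of the signal peptidase subunits, SPCS2 had 0.64 (SE 0.25), SPCS3 0.26 (SE 0.22) and SPCS1 0.17 (SE 0.13). Exons of SPCS1 overlap GLT8D1 and NEK4 on the opposite strand (65.1% and 45.3% as many counts). SPCS2 owed much of its value to siKMT2C replicate 1, at 51.5 CPM, where the other libraries held 20.8 to 30.3 CPM. Without that library the log2 fold change of SPCS2 was 0.30. The pseudogene SPCS2P4 held 149% as many counts as SPCS2, so its level is uncertain. SEC24D, a cargo adaptor of the COPII coat, was at 131.2, 133.1 and 110.1 CPM against 128.4, 134.6 and 111.8 CPM (log2 fold change 0.00, SE 0.14), with the same order of libraries in both groups.

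Among the stress sensors and transcription factors, CREB3L2 rose and the other 4 were not called by the reported edgeR fit, DESeq2 or limma-voom. ATF6 was called with GC and length correction (9.09% of all genes), and when replicate number was added to that fit (9.19%). CREB3L2 (ENSG00000182158, chromosome 7, 137874979 to 138002067, GRCh38) encodes a membrane-bound factor related to ATF6 that is known for driving secretory pathway genes in cartilage. It was at 137.8, 136.0 and 124.4 CPM in siKMT2C and 84.3, 86.2 and 83.2 CPM in siNC, so that neither group spread by more than a small part of the gap between them. The mean went from 84.6 ± 1.56 to 132.8 ± 7.26 CPM (SD, n = 3; log2 fold change 0.65, SE 0.12, edgeR adjusted p = 0.0402). CREB3L2 was likewise called when siNC replicate 3 was left out (adjusted p = 0.0275) and lost with any other single library. The adjusted p was then 0.230, 0.170 and 0.0967 for siKMT2C replicates 1, 2 and 3 in turn, and 0.101 and 0.176 for siNC replicates 1 and 2. Its log2 fold change ranged from 0.62 to 0.70 over these 6 fits.

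ATF6, the sensor that is cut in the Golgi to release a transcription factor, was at 90.5, 106.7 and 83.8 CPM in siKMT2C and 87.2, 77.7 and 57.6 CPM in siNC (log2 fold change 0.34, SE 0.18, edgeR adjusted p = 0.404, and 0.18 without siNC replicate 3). XBP1, whose RNA is spliced by ERN1, was at 162.9, 174.0 and 166.0 CPM against 156.9, 145.6 and 141.7 CPM (0.18, SE 0.11, edgeR adjusted p = 0.476). The groups of XBP1 did not overlap, but counts per gene do not separate its spliced form. ERN1 itself was at 32.0, 35.1 and 29.2 CPM against 35.9, 35.6 and 37.2 CPM (-0.17, SE 0.13, edgeR adjusted p = 0.561). It was the only tested member in which every siKMT2C library lay below every siNC library. EIF2AK3 (PERK), the kinase that slows translation, was at 36.3, 37.7 and 35.1 CPM against 40.6, 35.7 and 32.3 CPM (0.01, SE 0.14, edgeR adjusted p = 0.991), and its sign turned with library size alone (-0.02).

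**Figure D3:**
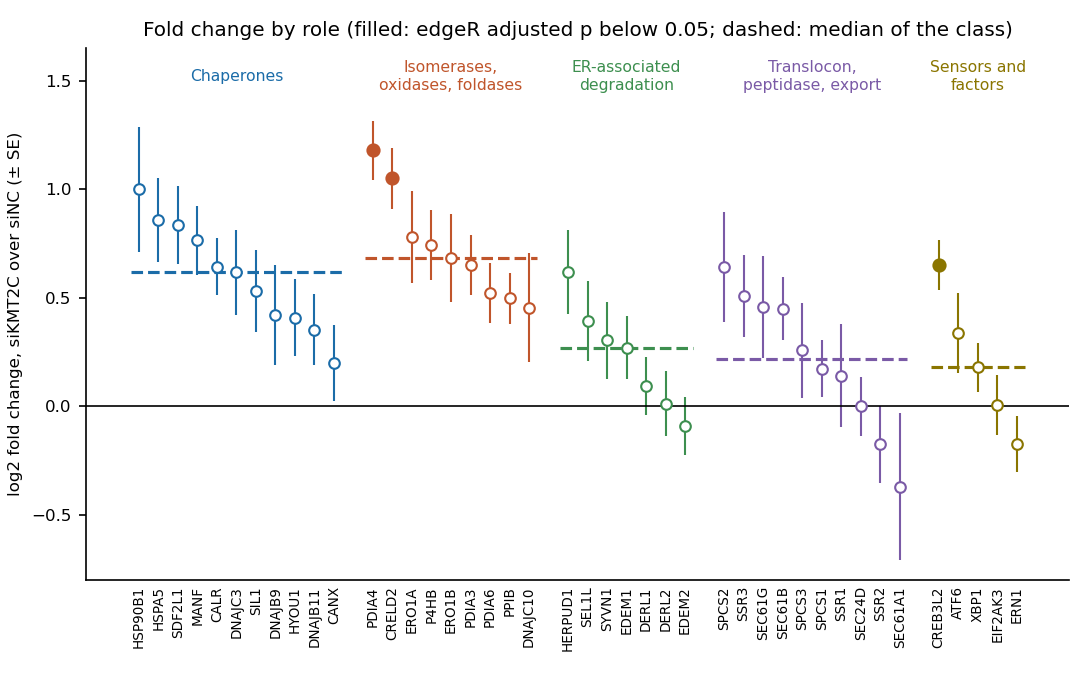
Log2 fold change of siKMT2C over siNC (± SE, from the edgeR fit) for each tested member, grouped by role; filled points passed the adjusted p of 0.05 and dashed lines are class medians. The medians are 0.62 for chaperones and 0.68 for isomerases and foldases, and 0.27, 0.22 and 0.18 for degradation, translocon and sensor genes.

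Set side by side, the 20 chaperones and foldases had a median of 0.65 with 20 positive values, and the other 22 tested members had 0.22 with 17 positive. Without replicate 3 of both groups, a setting chosen after seeing the data, the class medians were 0.56 (chaperones), 0.61 (foldases), 0.26 (degradation), 0.22 (translocon) and 0.15 (sensors). Summed over members, the chaperones held 15970, 18240 and 13340 CPM in siKMT2C and 9746, 11100 and 7332 CPM in siNC. The foldases held 6001, 6401 and 5472 CPM against 3722, 3816 and 3033 CPM. In both classes the groups did not overlap, and the ratio of the means was 1.69 in each. The chaperone sum mostly reflects HSPA5 and HSP90B1, which held means of 6526 and 4470 CPM of the class mean of 15850 CPM in siKMT2C. Fold changes of single chaperones ran from 1.15 (CANX) to 2.00 (HSP90B1). Degradation genes had a ratio of 1.25 with groups just apart (862.2 CPM in the lowest siKMT2C library, 836.8 CPM in the highest siNC library). The sensors and transcription factors had 1.22, also with groups apart (438.6 CPM in the lowest siKMT2C library, 405.0 CPM in the highest siNC library). Their summed mean went from 379.2 CPM in siNC to 462.5 CPM in siKMT2C, and CREB3L2 alone went from 84.6 to 132.8 CPM. ERN1 and EIF2AK3 had log2 fold changes of -0.17 and 0.01, so the sum does not describe each sensor. Translocon genes had 1.15 with overlapping groups. HSPA5 and HSP90B1 made up 39.7% to 45.8% of the CPM of all 43 members in siKMT2C and 31.9% to 39.6% in siNC.

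Per gene length, on the deposited FPKM scale, levels differed widely between members. In siNC, HSPA5 led at a mean of 927.3 FPKM, followed by HSP90B1 (292.6), CALR (235.2) and PDIA4 (214.8). The siNC libraries of HSP90B1 ran from 178.0 to 366.5 FPKM and so spanned those of CALR (210.0 to 266.3) and PDIA4 (200.1 to 242.9), which do not differ in order beyond their spread. In siKMT2C, PDIA4 stood at 477.2 FPKM, above CALR at 360.5 FPKM in every library. The sensors were low, with siNC means of 9.42 FPKM for ATF6, 4.73 for EIF2AK3 and 2.97 for ERN1. Members of other roles were as low, among them SPCS2 (3.84), SYVN1 (4.37) and ERO1B (4.38). XBP1 stood at 15.1 FPKM, near ERO1A at 14.3 FPKM.

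Members that carry ERSE or ERSE-II had higher median fold changes than the rest. The 3 members with TGACGTGG had a median of 0.45, and the 122 other tested genes with it had 0.05. The 8 members with ERSE were all positive, with a median of 0.66 that ran from 0.18 (XBP1) to 1.05 (CRELD2). Of these 8, edgeR called 1 and DESeq2 called 5, where the tools called 1.5% and 5.74% of all genes. The 3 with ERSE-II had 0.41 (HYOU1), 0.62 (HERPUD1) and 0.83 (SDF2L1). The 27 tested members with a window and neither ERSE nor ERSE-II had a median of 0.42, with 23 positive. DNAJC10 and SSR3, which have TGACGTGG, are among them. Of these 27, edgeR called PDIA4 and CREB3L2, and DESeq2 called 6. Role and element go together here, since 9 of the 11 carriers are chaperones or foldases. Among chaperones and foldases alone, the 9 carriers had a median of 0.68 and the 10 with a window and neither element had 0.57, a gap smaller than the spread within either set (0.20 to 1.05 and 0.35 to 1.18). These differences were not tested. Outside the list, 8 tested genes had ERSE, and edgeR called none of them; their median was 0.29 with 5 positive. Of these, the HSPA5-modifying enzyme FICD had 0.76 (edgeR adjusted p = 0.103) and the translocon-associated SERP1 0.28 (edgeR adjusted p = 0.399). The 11 other tested genes with ERSE-II had a median of 0.01, and edgeR called none of them.

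**Figure D4:**
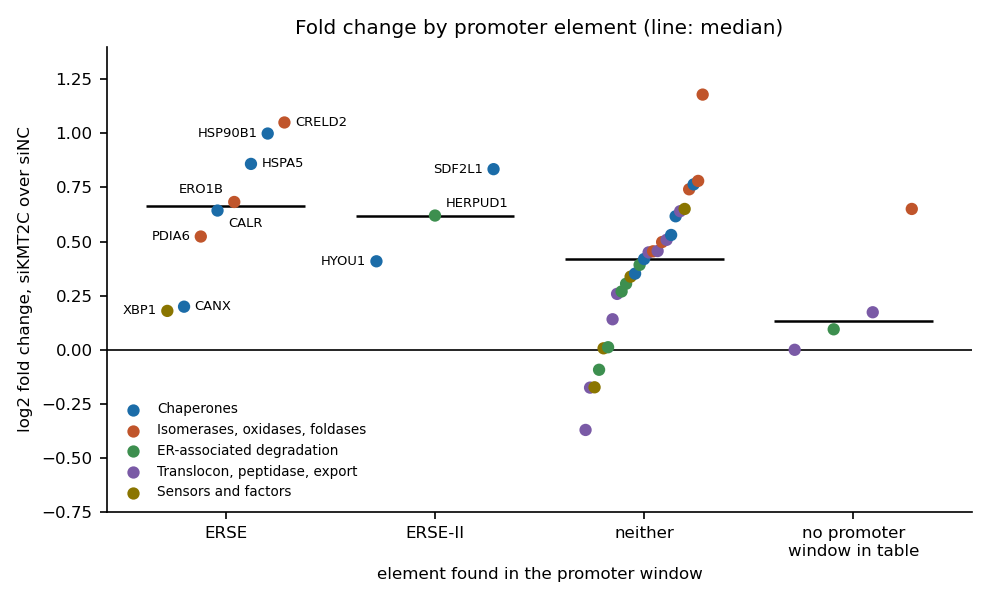
Log2 fold change of each tested member by the element found in its promoter window (ERSE, ERSE-II, neither, or no window in the sequence table), coloured by role, with the median as a line. Carriers of ERSE lie between 0.18 and 1.05, and members with neither element span -0.37 to 1.18.

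Other genes of the pathway had a smaller median than the members, which were chosen with earlier results of these data known. Single genes outside the list went higher, since their largest log2 fold change was 1.47 (not called by edgeR), against 1.18 among the members. Over 6 further lists with 107 tested genes, 1 rose and none fell (edgeR adjusted p under 0.05), against 0.69% and 0.81% of all genes, so the called share was near the background. Of the 107, 75 had positive values (70.1%, against 49.7% of all genes), and the median was 0.11. The riser was GANAB, the catalytic subunit of the glucosidase that trims glycans so that CALR and CANX can bind. GANAB was at 384.4, 259.6 and 388.5 CPM in siKMT2C and 127.0, 131.7 and 159.4 CPM in siNC (log2 fold change 1.30, SE 0.19, edgeR adjusted p = 0.0247). The call of GANAB was lost on leaving out siKMT2C replicate 1 (adjusted p = 0.125), siKMT2C replicate 3 (0.0803), siNC replicate 1 (0.0790) or siNC replicate 2 (0.119). Of the 8 genes of glycoprotein quality control 7 were positive, and the glucosyltransferase UGGT1, which tests glycoproteins for folding, had 0.41 (SE 0.14) with groups apart. The cargo receptors LMAN1 and MCFD2 had 0.35 (SE 0.17) and 0.15 (SE 0.14).

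Of 28 other foldases and chaperones 21 were positive, and the median was 0.21. By edgeR none was called, 8 had an unadjusted p under 0.05, and DESeq2 and limma-voom called 4 and 1. Across all genes 7.91% had such an edgeR p with higher values, and DESeq2 and limma-voom called 5.74% and 1.42%. The ER peroxidase PRDX4 was closest to the threshold, at 79.6, 63.9 and 55.9 CPM against 28.2, 21.8 and 37.5 CPM (log2 fold change 1.19, SE 0.23, edgeR adjusted p = 0.0508). TXNDC12 (0.68, SE 0.17), the calcium-binding CALU (0.96, SE 0.26) and the prolyl isomerase FKBP9 (0.77, SE 0.23) followed, all with groups apart. None of these 3 was called by edgeR or limma-voom, and DESeq2 called all 3 (adjusted p = 0.0208, 0.0141 and 0.0418), as it did PRDX4. The 25 other translocon, signal recognition and glycan transfer genes had a median of 0.09. In edgeR none was called, 6 had an unadjusted p under 0.05 (4 higher and 2 lower), and DESeq2 called 2. Across all 15063 genes, 1191 had such a p with higher values and 1357 with lower values, and DESeq2 called 5.74% in either direction. The signal peptidase subunit SEC11C (0.70, SE 0.13, edgeR adjusted p = 0.0525), the oligosaccharyltransferase subunit OSTC (0.91, SE 0.20, edgeR adjusted p = 0.0681), SRP19 of the signal recognition particle (0.43, SE 0.13) and SEC61A2 (-0.46, SE 0.18) had the smallest p-values.

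The remaining lists had medians near 0. The 20 other degradation genes had 10 positive values and a median of -0.01. By edgeR none was called, 4 had an unadjusted p under 0.05 (2 higher and 2 lower), and DESeq2 called 1 lower. Across all 15063 genes, 1191 had such a p with higher values and 1357 with lower values, so these counts were near the background. DESeq2 called 5.74% of all genes. HERPUD2 (-0.55, SE 0.13), TMUB1 (-0.80, SE 0.28), the extracting ATPase VCP (0.28, SE 0.11) and SELENOS (0.31, SE 0.12) had the smallest p. Thus HERPUD1 and HERPUD2 had opposite signs, and both had groups that did not overlap. The 13 other COPII coat genes had 9 positive values (69.2%), a median of 0.065 and overlapping groups in every gene, with no call by edgeR or DESeq2 and none at an unadjusted p under 0.05, with SEC13 (0.54, SE 0.24), SEC31A (0.21), SAR1B (0.18) and SEC24C (0.10) at the smallest p. The 13 tested regulators and outputs of the response had 10 positive values (76.9%) and a median of 0.08. None was called by edgeR, 2 had an unadjusted p under 0.05 with higher values, and DESeq2 called 1. Over all genes these shares were 7.91% and 5.74%, the second in either direction. The stress factor DDIT3 (CHOP) was at 31.0, 30.4 and 43.4 CPM against 22.1, 17.7 and 24.5 CPM (0.70, SE 0.20, edgeR adjusted p = 0.129). TRIB3, which acts downstream of DDIT3, had 0.91 (SE 0.39), but siNC replicate 3 (257.9 CPM) lay among the siKMT2C values. MBTPS2, a protease that releases ATF6, had -0.33 (SE 0.18), and CREB3 0.26 (SE 0.16).

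Chaperones of the cytosol and mitochondria were listed for contrast. Of 14 tested, 10 were positive and the median was 0.24, against 0.62 for the ER chaperones on the fixed list. The 28 other ER foldases and chaperones, outside that list, had a median of 0.21 with 21 positive, no higher than the contrast genes. The contrast therefore does not show a shift particular to the ER, and these differences were not tested. Of the 14 contrast genes, edgeR and limma-voom each called 1 higher and DESeq2 called 3. Across all genes, edgeR called 0.69% higher and DESeq2 called 5.74% in either direction. The gene that rose in edgeR was the mitochondrial chaperonin HSPD1, at 673.5, 640.2 and 627.8 CPM in siKMT2C and 406.9, 383.7 and 307.5 CPM in siNC (log2 fold change 0.82, SE 0.13, edgeR adjusted p = 0.0333). The call of HSPD1 was kept on leaving out siNC replicate 3 (adjusted p = 0.0171) and lost for siNC replicates 1 (0.0714) and 2 (0.147) and siKMT2C replicates 1 (0.175), 2 (0.132) and 3 (0.0943). The mitochondrial Hsp70 HSPA9 (0.50, SE 0.11) and the cytosolic Hsp90 genes HSP90AA1 (0.57, SE 0.14) and HSP90AB1 (0.30, SE 0.11) had groups apart and were not called by edgeR or limma-voom. DESeq2 called HSPA9 and HSP90AA1 (adjusted p = 0.0145 and 0.0282) and not HSP90AB1 (0.267).

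**Figure D5:**
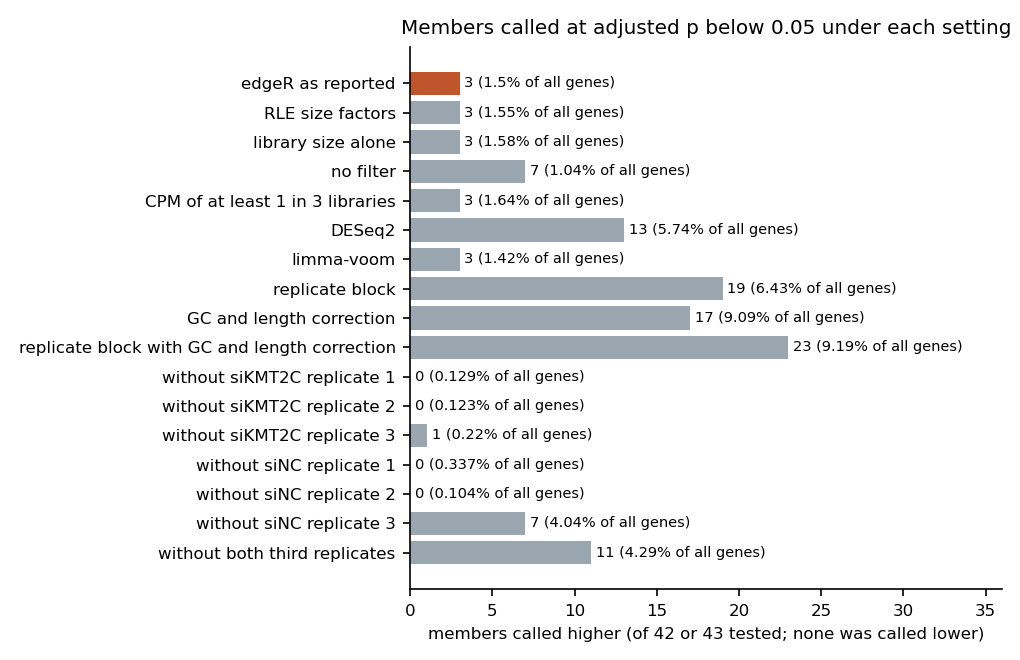
Number of members called higher at an adjusted p under 0.05 in the reported edgeR fit (3) and under each other setting, with the share of all genes called beside each bar. The count runs from 0 when some single libraries are left out to 23 with a replicate block and GC and length correction, and the share of all genes called runs from 0.104% to 9.19%.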

How the data were processed

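The authors deposited whole-number counts per gene and FPKM values in 1 table, per the file headers. The submitters' processing notes name CASAVA 1.8, TopHat2 2.0.6 and the mouse build mm10, although the identifiers are human; the counting program and annotation are not given in the sources used here. FPKM divided out from the counts to the same gene length in every library for each member. Counts were tested with edgeR 4.0.16 in R 4.3.3 (filterByExpr, TMM scaling, robust quasi-likelihood F test, 3 against 3 libraries), with Benjamini-Hochberg adjustment over all genes tested and a threshold of 0.05. Each SE was derived from the log2 fold change and its F statistic (|log2 fold change| / √F). CPM uses TMM-scaled library sizes. Where no other setting is named, edgeR stands for the TMM-scaled fit with filterByExpr. Symbols and positions come from GENCODE 29 (GRCh38), promoter windows from RefSeq. Members and lists were chosen with earlier results of these data known, so lists are described by counts and medians without a test. All 43 members could be named; of every other list, called genes and those with the smallest p, up to 4, were named. On data simulated for this comparison (14829 genes in the step) edgeR recovered 5.97%, 43.3% and 90.9% of genes changed 1.5-fold, 2-fold and 4-fold. Alternatives were DESeq2 1.42.0, limma-voom (limma 3.58.1), RLE factors or plain library size in place of TMM, a filter at 1 CPM or none, a replicate block, loess correction for GC content and length (span 0.3), both together, and leaving out each library. Leaving out replicate 3 of both groups was added after seeing the data. Retrieval signals at protein ends were not analysed here.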

Additional observations from a re-analysis of the deposited data

How the results depend on the processing

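Replicate numbers were not shown to pair the libraries: deviations of same-numbered libraries correlated at 0.02, 0.11 and 0.39, and siKMT2C replicate 2 correlated best with siNC replicate 1 (0.32). With the replicate block 19 members were called higher, and over all genes 456 were called higher and 512 lower. Members called higher numbered 7 with no filter, 13 with DESeq2, 17 with GC and length correction, 23 with the replicate block and that correction, and 11 without replicate 3 of both groups, a setting chosen after seeing the data. None was called lower in any setting run. Over all genes 404 were called higher and 460 lower with DESeq2, 775 and 594 with GC and length correction, 812 and 573 with the replicate block and that correction, and 291 and 357 without replicate 3 of both groups. When single libraries were left out, genes called higher ran from 6 to 262, genes called lower from 10 to 358, members called higher from 0 to 7, and KMT2C from -1.51 to -1.36. The median log2 fold change of the members then ran from 0.29 to 0.52, that of chaperones from 0.58 to 0.71, foldases 0.52 to 0.78, degradation genes 0.17 to 0.36, translocon genes 0.13 to 0.36 and sensors 0.14 to 0.22. The sensors' median was 0.0692 with GC and length correction and 0.0706 with the block and that correction. Signs turned only in members near 0. DERL2 was -0.0167 with library size alone, -0.0266 with GC and length correction, -0.0289 with the block and that correction and -0.017 without replicate 3 of both groups. EIF2AK3 was -0.0223 with library size alone and -0.0544 without replicate 3 of both groups, and SEC24D was 0.0043 with no filter. With single libraries left out DERL1 ran from -0.0095 to 0.17, DERL2 from -0.0901 to 0.0883, EIF2AK3 from -0.0791 to 0.10 and SEC24D from -0.083 to 0.0821. The cause of these moves was not tested. In the simulation, with 3 libraries a group, most 1.5-fold changes were missed. Its changed genes were drawn at random down to low levels, and its noise was independent between libraries. The tested members had means of at least 29.68 CPM, so the share that would be missed among them was not measured.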
